A study of Mus musculus with 8 samples.

Results

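Some H3K27me3 territory was listed in the liver of 1 mouse and in no other. These single-liver regions were autosomal union regions that overlapped islands of exactly 1 of 6 libraries. An island is a stretch of the genome that the authors listed as enriched in a library, and a union region is what remains when overlapping or touching islands of all 6 libraries are merged. Of 14513 autosomal union regions, 4360 were found in a single liver and 10153 in 2 or more. Each of the 4360 was 1 island of 1 library. The members were chosen by the authors' island calls, as presence in 1 list of 6, so their number, width, score and rank are descriptions. None of these was tested, except the number per liver between treatments, because treatment did not enter that choice. The lists of longer fragments, described below, did not enter that choice and gave a separate measure. It was not fully independent, because they came from the ChIP samples of replicate 1 of each group, whose other lists did enter.

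H3K27me3 is the trimethyl mark that Polycomb repressive complex 2 places on lysine 27 of histone H3. It marks silent chromatin, in focal peaks and wide domains over developmental regulators and in weaker, diffuse stretches elsewhere. In adult liver it is known for covering genes of other lineages and some genes with sex-dependent expression. TCPOBOP is an agonist of CAR, the nuclear receptor that induces drug-metabolising enzymes in hepatocytes.

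All samples were livers of male mice of the outbred CD-1 stock, aged 7 weeks. The TCPOBOP group received 3 mg/kg TCPOBOP and the vehicle group received corn oil with 1% DMSO, and livers were taken after 3 h. Each group had 3 libraries from separate livers, made from ChIP fragments of 600 to 1100 bp that were digested to 500 bp. Replicate 1 of each group had a further library from the same ChIP sample, made from fragments over 1100 bp that were digested to 200 bp. Whole liver was used, so fewer cells with the mark and less mark per cell cannot be told apart. Outbred mice differ in genotype, which the labels do not give. The 6 lists of 600 to 1100 bp held 6295 to 14748 islands. The lists of fragments over 1100 bp held 22077 islands over 676 Mb for TCPOBOP and 17577 islands over 654 Mb for vehicle. The files hold scores and positions but no read counts, so the depth is unknown and no counting interval is given. Coordinates are mm9 and 1-based. No gene is named for a region and no sequence is shown, because the gene table at hand is of another build.

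The TCPOBOP livers held 985, 469 and 250 single-liver regions in replicates 1, 2 and 3, against 462, 1307 and 887 in the vehicle livers. The groups overlapped, with the fewest regions in a TCPOBOP liver and the most in a vehicle liver. As a share of each list these were 7.16, 4.60 and 3.97% of the islands with TCPOBOP, against 4.59, 8.86 and 7.14% with vehicle. TCPOBOP livers averaged 568 ± 377 such regions and vehicle livers 885 ± 423 (SD, n = 3 each), a difference of -317. Livers given the same treatment varied by more than that difference, with SDs of 377 and 423. The number in a liver depends on what the other lists hold, so the numbers are not independent. A two-sided exact permutation test of the difference gave p = 0.5. With 3 livers against 3 the smallest p that this test can give is 0.1, so it could not pass 0.05. The difference was -696 without TCPOBOP replicate 1, -675 without vehicle replicate 1, -164 without TCPOBOP replicate 3 and -185 without vehicle replicate 2.

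Number and width differed between lists that reached lower scores and lists that ended at higher ones. The lists of TCPOBOP replicate 1 and vehicle replicates 2 and 3 went down to scores of 44.2, 48.3 and 41.0, and those livers held 985, 1307 and 887 single-liver regions. The lists of TCPOBOP replicates 2 and 3 and vehicle replicate 1 ended at 71.0, 77.7 and 84.6, and those livers held 469, 250 and 462. Inside each set the number did not rise steadily as the lowest score fell. Of the lists that reached lower, the one ending at 41.0 held the fewest, 887. Of the others, the list ending at 77.7 held fewer than the one ending at 84.6. The lists of vehicle replicate 2, TCPOBOP replicate 1 and vehicle replicate 3 held 14748, 13759 and 12430 islands. Those of TCPOBOP replicate 2, vehicle replicate 1 and TCPOBOP replicate 3 held 10197, 10057 and 6295. From the longest list to the shortest, the number of single-liver regions fell at each step, as did their share of the list. Within the lists that reached lower the TCPOBOP minus vehicle difference was -112, and within those that ended higher it was -102.5, each with 1 liver against 2 and no test. With the same score minimum in all 6 lists the pooled difference was -355 (means 357 and 711, two-sided exact permutation p = 0.9). With lists cut to equal covered length it was -162 (two-sided exact permutation p = 0.9). Beyond these settings, what part the lowest score or the number of islands of a list has in the pooled difference was not tested.

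Single-liver regions were narrower than the merged regions of 2 or more livers. Their median width was 14 kb (quartiles 10.4 and 19.2 kb, lowest 1.6 kb, highest 54 kb), against 33.2 kb for regions of 2 or more livers. A wide region has more room to meet an island of another list, so part of this gap follows from the choice. Merging of islands also widens regions of 2 or more livers. Median widths were 12.4, 21.6 and 25.6 kb in TCPOBOP replicates 1, 2 and 3, against 22.8, 12 and 11.2 kb in vehicle replicates 1, 2 and 3. Island for island the gap was smaller. Single islands in regions of 2 or more livers had medians of 14.8, 22.8 and 24.4 kb in TCPOBOP replicates 1, 2 and 3. For vehicle replicates 1, 2 and 3 these medians were 27.2, 15.6 and 13.2 kb. In TCPOBOP replicate 3 the single-liver regions were thus the wider. The 3 livers with wide single-liver regions were the 3 whose lists ended at higher scores, 1 of them treated with vehicle. Together the 4360 regions spanned 67.0 Mb, or 2.71% of the autosomes, while regions of 2 or more livers spanned 469 Mb, or 19%.

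**Figure D1:**
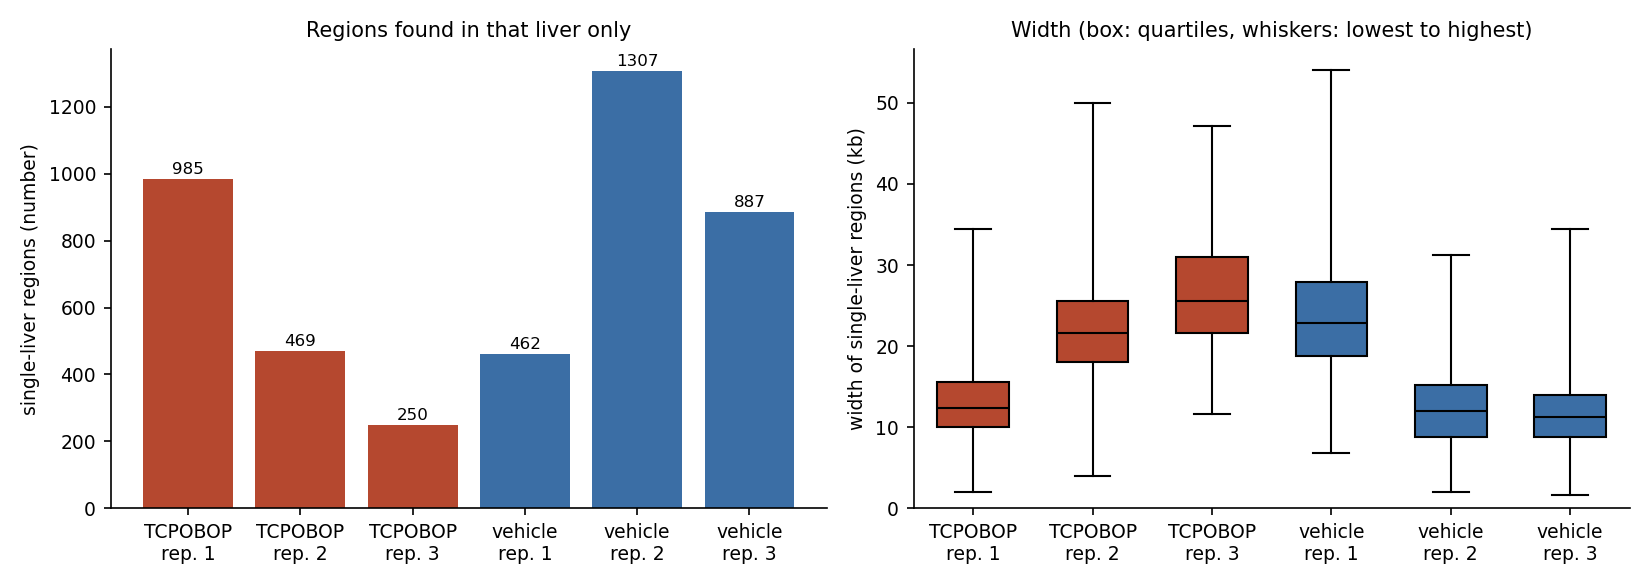
Number of single-liver regions (left) and their width in kb (right; box, quartiles with the median; whiskers, lowest to highest) for the 3 TCPOBOP and 3 vehicle livers. The numbers run from 250 to 1307 and the treatments overlap in both panels.

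By score, single-liver regions sat near the bottom of the list they came from. Rank was counted from the top as a percent of the islands in the list, and the median was 82.5% (quartiles 70.3 and 92.3%). Of the 4360 regions, 4144 (95%) were in the lower 50% of their list and 10 (0.229%) in the top 25%. Median ranks lay between 80.3 and 84.8% in all 6 livers, while islands of the same lists in regions of 2 or more livers had medians of 45.8 to 48.4%. Score per kb was also lower. It had medians of 4.35, 3.93 and 3.49 in TCPOBOP replicates 1, 2 and 3, against 6.03, 5.74 and 5.10 for the islands that those lists shared with other livers. In vehicle replicates 1, 2 and 3 it was 4.49, 5.01 and 4.34, against 6.76, 6.86 and 5.89 for shared islands.

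A few single-liver regions ranked high. The highest was 17.6 kb on chromosome 15, from 74567201 to 74584800, at rank 1596 of 12430 (12.8%) in vehicle replicate 3. It was 100% covered in both lists of fragments over 1100 bp and lay 3.6 kb from a region of 2 or more livers. The next was 13.2 kb on chromosome 16, from 17823601 to 17836800, at rank 1895 (15.2%) in the same liver. It was 0% covered in both lists of longer fragments and stood 57.6 kb from the nearest recurrent region. Vehicle replicate 3 also held a region of 29.2 kb on chromosome 15, from 91011201 to 91040400, at rank 2199 (17.7%), again at 0% in both. In TCPOBOP replicate 1 the highest was 19.6 kb on chromosome 17, from 30773601 to 30793200, at rank 2835 of 13759 (20.6%) and 0% in both. The second in that liver was 15.6 kb on chromosome 6, from 90395201 to 90410800, at rank 2992 (21.7%), with 46.2% covered in the TCPOBOP list and 0% in the vehicle list. Of the 5 highest-ranked single-liver regions, 1 was thus covered by 50% or more in the longer fragments and 3 were at 0% in both lists.

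In the other 4 livers the top region was covered by 50% or more in both lists. In TCPOBOP replicate 2 it was 30 kb on chromosome 15, from 88433601 to 88463600, at rank 3516 of 10197, and 100% covered in both. In TCPOBOP replicate 3 it was 43.2 kb on chromosome 14, from 105708801 to 105752000, at rank 1716 of 6295, with 59.3% covered in the TCPOBOP list and 51.9% in the vehicle list. In vehicle replicate 2 it was 22.8 kb on chromosome 17, from 43654001 to 43676800, at rank 3634 of 14748, with 100% and 87.7% covered in the same order of lists. Vehicle replicate 1 had its top region in the widest single-liver region of all. That region spanned 54 kb on chromosome 1, from 154627201 to 154681200, at rank 2329 of 10057, and was 77.8% covered in the TCPOBOP list and 61.5% in the vehicle list.

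The other 4 widest regions split in the same way. In vehicle replicate 1, a 50.4 kb region from 128015201 to 128065600 of chromosome 8 was 0% covered in both lists of longer fragments. So was its 46.4 kb region of chromosome 4, which ran between 128306001 and 128352400. The vehicle list of longer fragments came from the same ChIP sample as that liver's own list. A 50 kb region on chromosome 12 (54712801 to 54762800) of TCPOBOP replicate 2 was 67.2% covered in the TCPOBOP list and 100% in the vehicle list. A 47.2 kb region on chromosome 12 (90922001 to 90969200) of TCPOBOP replicate 3 was 57.6 and 78.8% covered in those lists.

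The fragments over 1100 bp asked whether single-liver regions were met again in other libraries. A region counted as covered when 50% or more of its length lay under islands. Of the 4360 regions, 2807 (64.4%) were covered in the TCPOBOP list and 2617 (60.0%) in the vehicle list. Among all 14513 union regions these shares were 76.4 and 74.3%. Either list covered 2992 single-liver regions (68.6%, against 80.4% of all union regions), and both lists covered 2432 (55.8%, against 70.3% of all union regions). Neither list had any island on 1174 (26.9%), against 748 of the 10153 regions of 2 or more livers (7.37%). Most regions met again therefore lay under islands of 2 animals that differed in treatment, and at least 1 of those animals was not the liver of origin.

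By length, 60.0% of the territory of single-liver regions lay under islands of the TCPOBOP list of longer fragments and 57.5% under those of the vehicle list. Of the autosomal length with no island in the 6 livers, 13.5% was covered in the TCPOBOP list and 12.5% in the vehicle list. Single-liver territory was thus covered 4.43 and 4.61 times as much as territory without islands. Territory of regions of 2 or more livers was covered to 79.4 and 79.5%. The length without islands includes assembly gaps, which can hold no island. It is also by rule absent from the lists of the replicate 1 livers, whose ChIP samples gave the longer fragments. Those livers held 985 (TCPOBOP) and 462 (vehicle) of the single-liver regions, so part of the difference is built in.

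Cover was mostly all or none. In the TCPOBOP list of longer fragments 1699 single-liver regions (39.0%) were covered whole, 1108 by 50% to under 100%, 253 by less than 50% and 1300 (29.8%) not at all. In the vehicle list the numbers were 1758 (40.3%), 859, 193 and 1550 (35.6%). The values closest to the limit of 50% were 49.2 and 50% in the TCPOBOP list and 49.3 and 50% in the vehicle list. At the edge of the rule for members, 34 single-liver regions lay 400 bp from a region of another liver. Just beyond it, of 2207 regions of 2 livers, 6 were made of islands that touched without a shared base and 5 of islands that shared 400 bp.

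The share covered rose with the number of livers that held a region. In the TCPOBOP list it was 64.4, 71.1, 75.9, 77.4, 84.4 and 90.9% for regions of 1, 2, 3, 4, 5 and 6 livers. In the vehicle list it was 60.0, 67.1, 75.2, 75.9, 84.7 and 91.1%. Both lists came from ChIP samples of replicate 1 livers, which by definition hold every region of 6 livers. Part of the rise is therefore built in. Regions of more livers were also wider, with medians of 14, 21.2, 26.2, 30.8, 36.8 and 58.8 kb. Within classes of width, single-liver regions again had the lower share. Of regions from 8 to under 16 kb, either list covered 1497 of 2188 single-liver regions (68.4%) and 746 of 934 regions of 2 or more livers (79.9%). From 16 to under 32 kb the shares were 70.5% of 1534 and 81.8% of 3766. At 32 kb or more they were 60.7% of 150 single-liver regions and 89.1% of 5385 others. Single-liver regions were the narrower in each class, with medians of 11.6 and 12.8 kb, 20.4 and 23.6 kb, and 35.6 and 51.6 kb. Width was thus not fully matched, least of all at 32 kb or more.

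**Figure D2:**
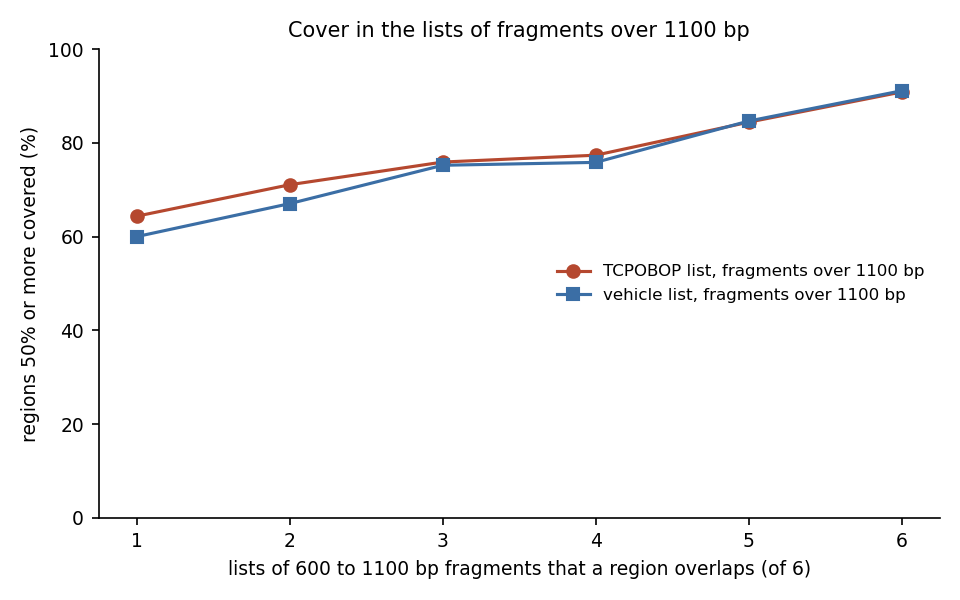
Percent of autosomal union regions covered by 50% or more in the TCPOBOP (red) and vehicle (blue) lists of fragments over 1100 bp, by the number of livers that held the region (1 to 6). Regions of a single liver stand lowest, at 64.4 and 60.0%, and regions of all 6 livers highest, at 90.9 and 91.1%.

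Single-liver regions were set against the nearest class, regions of 2 livers, with the liver as the unit. Either list of longer fragments covered 67.9, 78.9 and 49.6% of single-liver regions in TCPOBOP replicates 1, 2 and 3, and 69.5, 74.9 and 59.6% in vehicle replicates 1, 2 and 3. Of regions that a liver shared with 1 other, it covered 74.7, 81.8 and 68.1% for the TCPOBOP livers and 72.0, 77.8 and 69.7% for the vehicle livers. Single-liver regions were lower in 6 of 6 livers, with a mean of 66.7 ± 10.7% against 74.0 ± 5.16% (SD, n = 6 livers). The difference was -7.29 percentage points (two-sided exact permutation test of signs, p = 0.03125, the smallest it can give with 6 livers). Each region of 2 livers counts for both of them, so the 6 differences are not fully independent. The longer fragments came from the ChIP samples of replicate 1 of each group, whose lists entered the choice. A single-liver region of another liver is by rule absent from both of those lists, while a region of 2 livers may be in 1. Part of the difference is therefore built in. The p was 0.125 with a score minimum in all lists, 0.0625 at equal covered length and 0.09375 when 80% was needed to count as covered, and this comparison was chosen after the data had been seen.

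Livers differed in how many of their single-liver regions were met again. TCPOBOP replicate 2 had the highest share, 73.3% in the TCPOBOP list and 70.1% in the vehicle list. TCPOBOP replicate 3 had the lowest, 44.0 and 41.2%. Vehicle replicate 3 followed with 55.9 and 50.6%, and the other 3 livers lay at 63.9 to 71.1% and 58.7 to 66.3%. TCPOBOP replicate 3 also had the shortest list, with 6295 islands over 174 Mb, and 98 of its 250 single-liver regions (39.2%) were at 0% in both lists. For regions of 3, 4 and 5 livers, either list covered 69.8, 78.4 and 83.0% of those that TCPOBOP replicate 3 took part in, the lowest of the 6 livers in each class. By treatment, either list covered 65.5 ± 14.8% of single-liver regions of TCPOBOP livers and 68.0 ± 7.74% of those of vehicle livers (SD, n = 3 each). The difference of -2.54 percentage points had p = 0.8 in a two-sided exact permutation test (smallest possible 0.1). It was smaller than the SD of either group. It was 5.20 without TCPOBOP replicate 3, 2.45 without vehicle replicate 2, -8.19 without TCPOBOP replicate 2, -6.04 without vehicle replicate 3 and -0.981 without vehicle replicate 1. Within the lists that reached lower scores it was 0.647, and within those that ended higher it was -5.23.

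**Figure D3:**
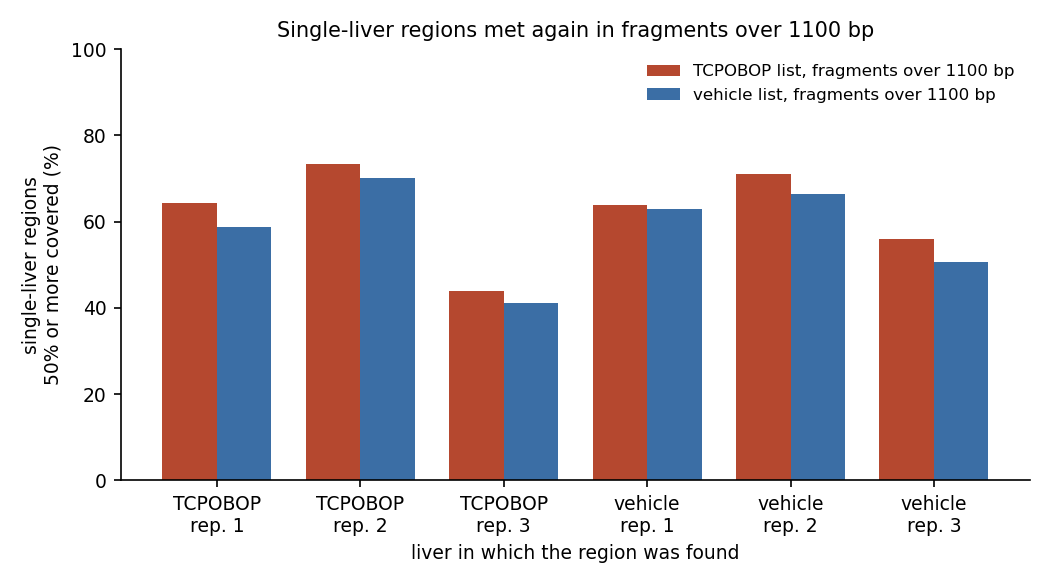
Percent of the single-liver regions of each liver (3 TCPOBOP, 3 vehicle) that were covered by 50% or more in the TCPOBOP (red) and vehicle (blue) lists of fragments over 1100 bp. The bars run from 41.2% for TCPOBOP replicate 3 to 73.3% for TCPOBOP replicate 2, and in all 6 livers the red bar is the higher.

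Replicate 1 of each treatment allowed the same liver to be set against another animal, with no test because there was 1 ChIP sample per treatment. Of the 985 single-liver regions of TCPOBOP replicate 1, 633 (64.3%) were covered in the list of its own ChIP sample and 578 (58.7%) in that of the vehicle liver. Of the 462 of vehicle replicate 1, 291 (63.0%) were covered in the list of its own ChIP sample and 295 (63.9%) in that of the TCPOBOP liver. Own minus other was 5.58 points for TCPOBOP replicate 1 and -0.866 points for vehicle replicate 1. The TCPOBOP list covered more single-liver regions also of the 4 livers that had no library of longer fragments, by 2.80 to 5.30 points. TCPOBOP list minus vehicle list was 5.58 points for TCPOBOP replicate 1, above that range, and 0.866 points for vehicle replicate 1, below it. Both livers thus lay outside the range of the other 4 on the side of their own list, TCPOBOP replicate 1 by little. The gap between the lists also changed with width. The TCPOBOP and vehicle lists covered 63.9 and 54.5% of single-liver regions under 8 kb, and 64.4 and 60.2% from 8 to under 16 kb. From 16 to under 32 kb they covered 65.4 and 61.8%, and at 32 kb or more 55.3 and 56.7%. Median width was 12.4 kb in TCPOBOP replicate 1 and 22.8 kb in vehicle replicate 1, and the part of width was not tested. Of regions covered in 1 list alone, TCPOBOP replicate 1 had 91 in its own and 36 in the other, and vehicle replicate 1 had 26 in its own and 30 in the other. The TCPOBOP and vehicle lists alone covered 41 and 26 regions of TCPOBOP replicate 2 and 21 and 14 of TCPOBOP replicate 3. For vehicle replicate 2 these numbers were 112 and 50, and for vehicle replicate 3 they were 80 and 33.

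Regions that followed the liver of origin in full were few. In TCPOBOP replicate 1, 23 single-liver regions were 100% covered in the list of its own ChIP sample and 0% in the vehicle list, and 10 showed the opposite. The widest of the 23 covered 16 kb of chromosome 14 (77373201 to 77389200) and ranked 13441 of 13759 by score in the liver of origin. The next spanned chromosome 9 between 13772401 and 13787600 (15.2 kb, rank 10082), followed by one of 14.8 kb at rank 9979, between 116558801 and 116573600 of chromosome 6. In vehicle replicate 1 there was 1 such region, 24.8 kb on chromosome 15 (87748401 to 87773200), at rank 7812 of 10057, and 2 showed the opposite.

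Where a single-liver region was met again, the island of longer fragments was usually the wider one. In the TCPOBOP list the covering island had a median width of 28.8 kb, against 19.6 kb for all autosomal islands of that list, and was wider than the region in 2287 of 2807 cases (81.5%). In the vehicle list it had a median of 34.0 kb, against 24.4 kb for all, and was wider in 2289 of 2617 cases (87.5%). Wider islands cover more of any territory, so a wider median among covering islands is built into this comparison. The covering islands had median score ranks of 35.6% from the top in the TCPOBOP list and 39.1% in the vehicle list. In 708 cases (25.2%) in the TCPOBOP list and 755 (28.8%) in the vehicle list, the covering island also reached a region of 2 or more livers.

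Single-liver regions tended to lie near recurrent ones. The gap to the nearest region of 2 or more livers had a median of 33.6 kb (quartiles 9.6 and 98.1 kb), against 168 kb for 400 bp windows under no island (quartiles 47.6 and 563 kb). For a single-liver region the gap was taken from its nearer end, which shortens it against a single window. Windows in assembly gaps, which can hold no island, were also counted. The median gap was 30, 32.4 and 52 kb in TCPOBOP replicates 1, 2 and 3, against 23, 34 and 44.8 kb in vehicle replicates 1, 2 and 3. Within 10 kb of a recurrent region lay 1100 single-liver regions (25.2%), while 7.88% of the length without islands did. At 200 kb or more lay 535 regions (12.3%) and 46.2% of the length without islands. The nearest region of any other liver was a median of 22000 bp away, and for 1222 of 4323 single-liver regions with such a neighbour (28.3%) it was a single-liver region as well.

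Cover in the longer fragments fell little with that distance for single-liver regions and much more for the remaining territory. Within 10 kb of a recurrent region, 66.1% of single-liver length was covered in the TCPOBOP list and 64.4% in the vehicle list, against 32.5 and 32.7% of the length without islands. From 10 to under 50 kb the values were 61.5 and 59.7%, against 21.9 and 21.0%. From 50 to under 200 kb they were 54.5 and 51.4%, against 15.1 and 14.1%. At 200 kb or more, 56.1 and 51.4% of single-liver length was covered, against 6.12 and 4.76% of the length without islands. Assembly gaps were part of the length without islands, which was also by rule absent from the lists of the replicate 1 livers. The lower share of TCPOBOP replicate 3 held in each class of distance, with 43.6, 56.1, 46.1 and 50% of its regions covered in either list, the lowest of the 6 livers in each.

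**Figure D4:**
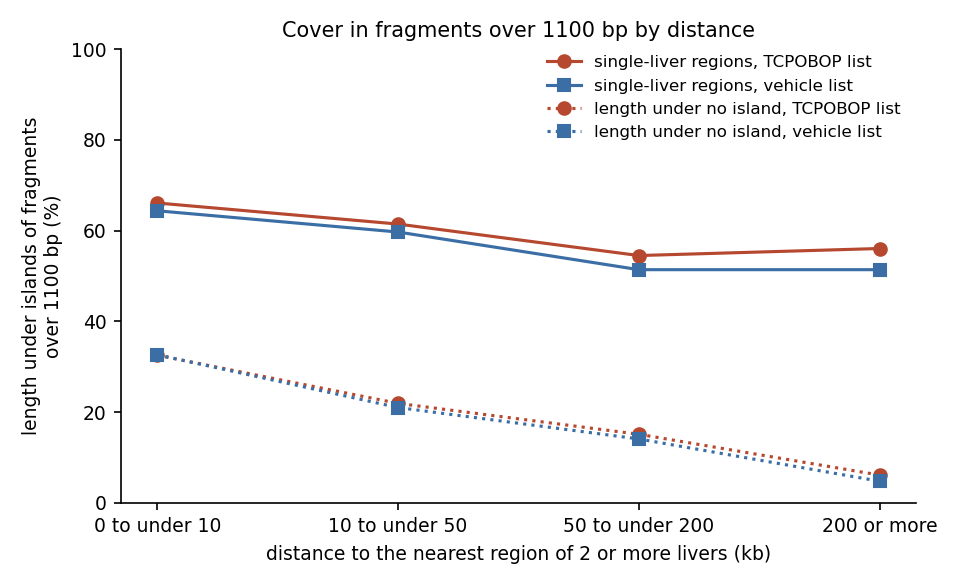
Percent of length under islands of the TCPOBOP (red) and vehicle (blue) lists of fragments over 1100 bp, by distance in kb to the nearest region of 2 or more livers. Solid lines are single-liver regions, which stay between 51.4 and 66.1%, and dotted lines are the length under no island of the 6 livers, which runs from 32.7 down to 4.76%.

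The surroundings of single-liver regions were measured in the same lists that sorted them into covered and uncovered. Covering islands were mostly wider than the region and ran into its flanks, so a higher value around covered regions is partly built in, and the values are a description. In the 500 kb on each side of the 2432 regions covered in both lists, a median of 45.7% lay under islands of the TCPOBOP list of longer fragments and 44.6% under those of the vehicle list. Around the 1174 regions at 0% in both, the medians were 25.9 and 25%. Regions of 2 or more livers took up 21.8% around the covered and 22.9% around the uncovered regions. The nearest of them was closer to covered regions, at a median of 28.8 kb, than to uncovered ones, at 46.2 kb, and it was closer in each of the 6 livers. Liver by liver, medians in the TCPOBOP list of longer fragments were 41.4 to 51.3% around covered and 23.5 to 27.6% around uncovered regions. The medians for regions of 2 or more livers were 15.1 to 28.1% around covered and 19.1 to 30.8% around uncovered regions. Single-liver regions without cover were of similar width, with a median of 12.8 kb against 14 kb for those covered in both.

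**Figure D5:**
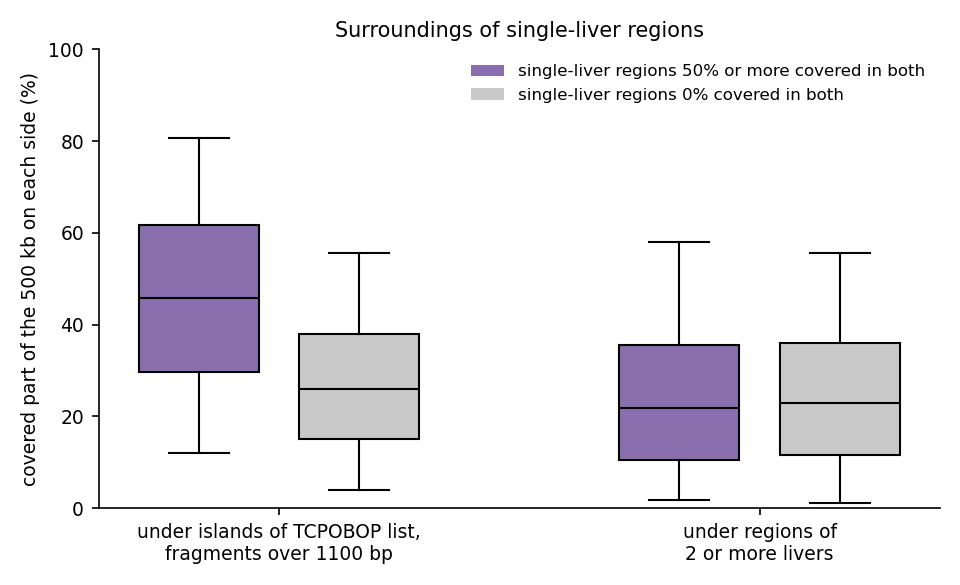
Percent of the 500 kb on each side of a single-liver region that lay under islands of the TCPOBOP list of fragments over 1100 bp (left pair) or under regions of 2 or more livers (right pair), for regions covered by 50% or more in both lists (purple) and at 0% in both (grey). Boxes show quartiles with the median and whiskers the percentiles 5 and 95; medians are 45.7 against 25.9% on the left and 21.8 against 22.9% on the right.

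Within single-liver regions, cover did not fall steadily with score. With the regions of each liver split in 4 equal parts by score, either list covered 70.9, 64.6, 66.3 and 65.2% from the highest to the lowest part, as means over 6 livers. The share fell at each step in TCPOBOP replicate 1 alone, with 71.7, 70.7, 65.9 and 63.4%. In TCPOBOP replicate 3 the lowest part had the highest share, with 52.4, 31.7, 54.8 and 59.7% in the same order. In the other 5 livers the lowest part stood below the top part, for example at 72.4 and 81.3% in vehicle replicate 2.

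Across the 19 autosomes, single-liver regions numbered 1.40 to 2.51 per Mb, lowest on chromosome 7 and highest on chromosome 19. Recurrent territory was less even, from 11.2% of chromosome 3 to 31.7% of chromosome 11, though the number of recurrent regions, 3.18 to 5.92 per Mb, varied about as much as that of single-liver regions. Single-liver regions per Mb were set against protein-coding genes per Mb, counted in a GRCm38.p6 table and divided by mm9 lengths. Over 19 autosomes Pearson's r was -0.0192 and Spearman's rho -0.0561 for single-liver regions, against r = 0.814 and rho = 0.825 for the percent of a chromosome under recurrent regions. Without the 2 autosomes farthest from the median gene density r was 0.328 for single-liver regions, against 0.756 for recurrent territory, so the value near 0 rests on those 2. Counted per Mb outside recurrent regions, single-liver regions had r = 0.327 and rho = 0.209, and r = 0.529 without those 2 autosomes. All these values share the same libraries and chromosome lengths, and they are a description with no p.

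Each liver spread its single-liver regions over all autosomes, and the share on 1 chromosome stood out once. Chromosome 17 held 41 of the 462 single-liver regions of vehicle replicate 1 (8.87%), against 2.4 to 3.83% in the other 5 livers. The chromosome was singled out after its values were seen. These 41 regions ran from 4599201 to 88523200, so they were not 1 block. Of the 41, 14 (34.1%) were at 0% in both lists of longer fragments and 23 (56.1%) were covered in either, against 23.6 and 69.5% of all 462 in that liver. Chromosome 17 took 4.48% of all islands in the list of vehicle replicate 1 and 3.73 to 4.17% in the other 5 lists.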

How the data were processed

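H3K27me3 ChIP-seq island lists from 3 TCPOBOP and 3 vehicle livers (600 to 1100 bp) and 1 library per treatment of fragments over 1100 bp were used. The authors deposited a score per island; per the submitters' processing notes, Bowtie2 2.3.2, SICER 1.1 and mm9 were involved, with roles not given. Per the file names, the window was 400 bp and the gap 2400 bp. Islands were listed per library, not on pooled replicates; an input was not analysed here. Scores were used as ranks within a list, apart from a score minimum tried across lists.

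Islands of the 6 lists were merged where they overlapped or touched. Of 47 union regions on X and Y, left out here, 19 were in 1 list. mm9 chromosome lengths came from general knowledge. Treatment means were tested by exact permutation over 20 labellings, two-sided. On simulated lists the merging step recovered 285 of 285 single-list regions among 1672. Simulated regions were kept more than 2400 bp apart. In the data 265 single-liver regions lay within 2400 bp of a region of another liver, and such neighbours were not simulated.

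Named regions were the 5 widest, the 5 highest by rank, the highest of each liver, and up to 3 per replicate 1 liver seen whole in its own list of longer fragments and not in the other. The members and lists were chosen with earlier results of these data known. Replicates are separate livers, and the label text places all 8 libraries on the same lane. Python 3.11.15, numpy 2.4.6, scipy 1.17.1 and matplotlib 3.10.9 were used.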

Additional observations from a re-analysis of the deposited data

How the results depend on the processing

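The number of single-liver regions, 4360, was 3204 to 4361 under the other settings that used all 6 livers and 4305 to 5202 with 1 liver left out, where members are regions of 1 of 5 lists. It was 1181 for the livers whose lists ended above a score of 70, by construction fewer. The share covered in the vehicle list was 51.8 to 68.6%, and 61.0 to 63.0% with 1 liver left out. In the TCPOBOP list it was 65.5 to 66.6% with 1 liver left out, 52.3% when 80% had to be covered and 71.6% at equal covered length, the lowest and highest of the settings with all 6 livers, against 64.4%; the cause was not tested. The TCPOBOP minus vehicle difference in number stayed negative in all settings run, from -696 to -164 with 1 liver left out. The difference in percent covered ranged from -8.19 to 5.20 with 1 liver left out and was 0.647 in livers whose lists reached scores under 50; the cause was not tested. Single-liver minus 2-liver cover, -7.29 points, was -6.27 when all lists had the same lowest score, -6.19 when lists were cut to the same length and -4.22 with 80% cover, each no longer under 0.05, and -9.41 to -5.63 with 1 liver left out, where p cannot fall below 0.0625.

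With the replicate number as a block the differences were -317 regions (exact permutation p = 0.5) and -2.54 points (exact permutation p = 0.75), where 0.25 is the smallest p. The deviations of livers with the same number had r = -0.00107, -0.00331 and 0.0480. These values showed no pairing of livers by number but cannot exclude it. Both lists of longer fragments lacked islands in 9 stretches of 100 kb or more where at least 5 livers had 20 kb or more, and rows may be missing there. Without the 5 single-liver regions inside them, 64.5% were covered in the TCPOBOP list and 60.1% in the vehicle list. The split by lowest score, the removal of these stretches and the comparison with 2-liver regions were added once values were known.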
